A study of Mus musculus with 16 samples.

Results

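The GABAergic interneurons of the striatum were followed through 10 marker genes in RNA-seq libraries from R6/1 and wild-type mice. The genes were Sst, Npy, Nos1, Pvalb, Vip, Cck, Th, Calb2, Gad1 and Gad2, taken by name, and a gene was kept when 4 or more of the 16 libraries held 10 or more of its counts. All 10 of the 10 listed genes passed, among 19363 genes that passed out of 55450 in the table.

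R6/1 mice carry a transgene with exon 1 of the human huntingtin gene and an expanded CAG repeat, and are a model of Huntington disease. All 16 animals were C57Bl/6 males aged 14 weeks, either R6/1 or wild-type littermates, without any treatment, and each gave 1 library of whole dissected striatum. Within each genotype, mice had been set apart as “good” or “poor” performers from z-scores of motor and weight measures, which gave 4 mice in each of the good and poor groups of wild-type and of R6/1 animals. These are the extremes of each genotype rather than a random draw from it. Total counts ran from 16155356 to 24897354 per library, and no pair of libraries of a group was as alike as sampling noise alone allows. Levels are given in CPM, counts scaled to a common library total, after TMM scaling, the trimmed-mean correction for differences in library composition.

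Most neurons of the striatum are medium spiny projection neurons, which are themselves GABAergic, and interneurons are a small minority of the cells. Several classes are told apart by what they contain. One class makes the peptides somatostatin and neuropeptide Y together with neuronal nitric oxide synthase, another contains the calcium buffer parvalbumin and fires fast, and smaller groups contain calretinin, tyrosine hydroxylase, vasoactive intestinal peptide or cholecystokinin. GABA itself is made from glutamate by the decarboxylases GAD67 (Gad1) and GAD65 (Gad2), in projection neurons as well as in interneurons. In whole tissue, fewer cells of a type and less RNA per cell cannot be told apart.

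The somatostatin gene is a textbook target of cAMP signalling through a cAMP response element, so the stretch before the transcript start is shown for 6 of the genes whose levels are described here. A 250-base window before a RefSeq start (GRCm38.p6) was found for 9 of the 10 genes, in 10 windows in all. The last 150 bases before the start are printed 5′ to 3′ on the gene's strand, but for Sst only the 30 bases from 59 to 30 before it and for Th those from 150 to 20 before it, because GENCODE places the start of these 2 genes further upstream and counts 114 and 19 bases of their windows as untranslated region. Capitals mark the full element TGACGTCA, which reads the same on both strands, or its short form TGACG on either strand (CGTCA when it lies on the opposite one), and a short form inside a full element was not counted again.

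Sst, chr16:23890874-23890903, minus strand: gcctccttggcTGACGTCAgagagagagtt
Th, chr7:142900015-142900145, minus strand: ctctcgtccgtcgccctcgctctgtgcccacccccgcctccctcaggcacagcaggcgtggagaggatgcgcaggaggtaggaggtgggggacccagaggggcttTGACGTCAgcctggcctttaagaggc
Vip, chr10:5639068-5639217, plus strand: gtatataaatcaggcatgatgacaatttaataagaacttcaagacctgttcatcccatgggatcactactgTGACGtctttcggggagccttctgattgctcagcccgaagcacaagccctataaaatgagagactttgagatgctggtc
Cck, chr9:121495695-121495844, minus strand: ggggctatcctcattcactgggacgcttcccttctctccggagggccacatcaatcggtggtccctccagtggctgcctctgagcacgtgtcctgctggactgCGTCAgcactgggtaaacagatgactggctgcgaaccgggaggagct
Nos1, chr5:117866689-117866838, plus strand: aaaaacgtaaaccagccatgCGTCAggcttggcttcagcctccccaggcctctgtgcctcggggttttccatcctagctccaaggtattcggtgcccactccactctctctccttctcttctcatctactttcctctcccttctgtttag
Npy, chr6:49822560-49822709, plus strand: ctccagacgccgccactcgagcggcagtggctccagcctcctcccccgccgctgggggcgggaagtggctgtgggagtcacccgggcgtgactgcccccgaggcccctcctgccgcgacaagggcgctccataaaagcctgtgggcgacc

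Sst held the full element from 48 to 41 bases before its start and Th from 45 to 38 bases before. The short form alone was present in 4 genes, namely Vip (starting 79 bases before), Cck (47), Nos1 (130) and Gad2 (33), and the windows of Npy, Pvalb and Gad1 held neither. Of all 32851 windows of this length, 1.55% held the full element and 17.8% the short form on either strand. The second share includes short forms inside full elements, and both are shares of windows rather than of genes. The RefSeq starts of Sst, Th and Nos1 all lie inside the GENCODE gene, whose first base is further upstream, with the Sst element inside the GENCODE transcript and the Nos1 stretch in an intron. Those of Npy, Vip and Cck are the GENCODE starts. These matches describe letters in a window and not bound sites. Sst and Th, which share the full element, were both lower in R6/1 striatum. So were Nos1, with the short form, and Npy and Gad1, which hold neither form in this window. Vip, Cck and Gad2, with the short form, and Pvalb, with neither, were not called in the comparison of all R6/1 with all wild-type mice. A relation between the element and these differences was not tested.

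Somatostatin, neuropeptide Y and nitric oxide synthase mRNA were each lower in every R6/1 mouse than in every wild-type mouse. Sst encodes somatostatin, an inhibitory peptide, and Ensembl gene ENSMUSG00000004366 lies on chromosome 16 (23889573 to 23890958, GRCm38, minus strand). Its level was 129, 129, 164 and 154 CPM in wild-type good mice and 144, 132, 128 and 143 CPM in wild-type poor mice. It was 77.6, 86.6, 79.8 and 82.8 CPM in R6/1 good mice and 59.3, 92.2, 73.2 and 100.2 CPM in R6/1 poor mice. The highest R6/1 mouse thus stood below the lowest wild-type mouse, and the R6/1 poor mice were the most dispersed, with a coefficient of variation of 22.8% against 4.78% in R6/1 good mice. Over the genotypes the mean was 140.5 ± 13.4 CPM in wild-type and 81.5 ± 12.4 CPM in R6/1 mice (SD, n = 8 each).

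Npy encodes neuropeptide Y (ENSMUSG00000029819, chromosome 6, 49822710 to 49829507, plus strand). It stood at 52.8, 54.4, 50.8 and 72.8 CPM in wild-type good and at 63.5, 50.9, 50.7 and 47.4 CPM in wild-type poor mice. In R6/1 good mice it was 35.4, 38.5, 29.0 and 34.8 CPM, and in R6/1 poor mice 15.9, 31.5, 20.6 and 34.8 CPM. The 2 lowest libraries of all, R6/1 poor 1 and R6/1 poor 3, were also the 2 lowest for Sst. Wild-type mice averaged 55.4 ± 8.48 CPM and R6/1 mice 30.1 ± 7.90 CPM (SD, n = 8 each).

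Nos1 encodes neuronal nitric oxide synthase (ENSMUSG00000029361, chromosome 5, 117781032 to 117958840, plus strand), the enzyme by which this class of interneuron makes nitric oxide. Its values were 87.1, 70.2, 76.5 and 64.6 CPM in wild-type good and 61.2, 69.3, 70.8 and 77.4 CPM in wild-type poor mice, against 38.0, 35.3, 34.7 and 49.1 CPM in R6/1 good and 44.7, 44.1, 49.4 and 39.1 CPM in R6/1 poor mice. Here the R6/1 good mice held the lowest values. The means were 72.2 ± 8.11 CPM in wild-type and 41.8 ± 5.83 CPM in R6/1 mice (SD, n = 8 each). In all, 3 of the 10 genes had every R6/1 library below every wild-type library, and 5.03% of the 19363 genes tested did so in that direction.

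**Figure D1:**
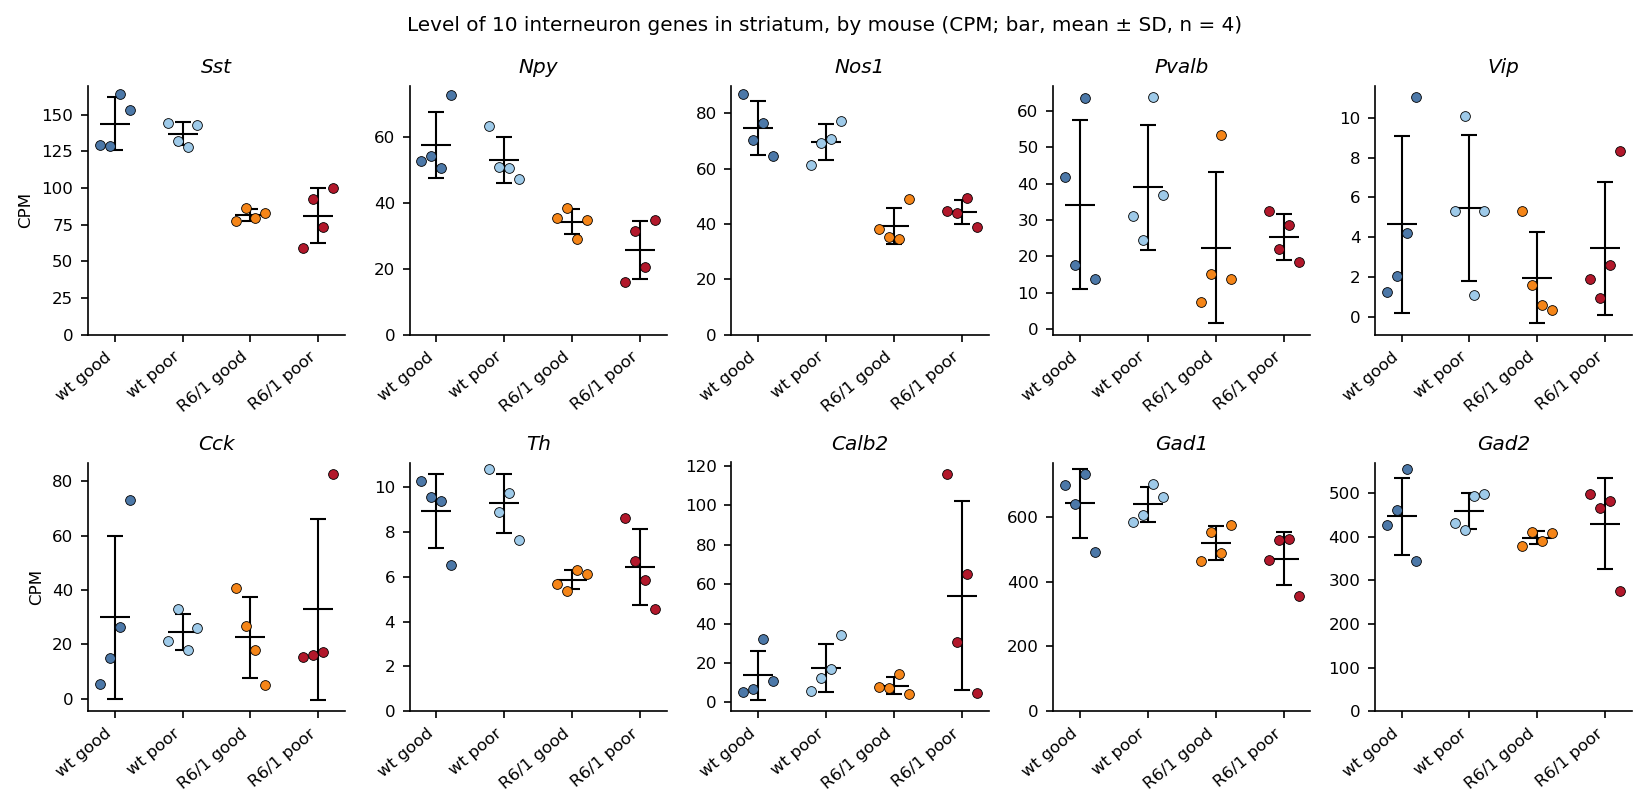
Level of each of the 10 genes in CPM (vertical axis of each panel) in the 4 mice of each group, with 1 point per mouse in replicate order and a bar for the mean ± SD (n = 4). Sst, Npy and Nos1 fall into 2 bands by genotype, whereas Pvalb, Vip, Cck and Calb2 spread widely inside the groups, as with Calb2 from 4.83 to 116 CPM among R6/1 poor mice.

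Pvalb, Vip, Cck and Calb2 varied so widely between mice of one group that the genotypes overlapped throughout. Pvalb encodes parvalbumin, the calcium buffer of fast-spiking interneurons (ENSMUSG00000005716, chromosome 15, 78191114 to 78206400, minus strand). It was at 41.9, 17.5, 63.5 and 13.7 CPM in wild-type good, 31.0, 24.5, 63.7 and 36.9 CPM in wild-type poor, 7.45, 15.3, 53.2 and 13.6 CPM in R6/1 good and 32.5, 21.96, 28.5 and 18.4 CPM in R6/1 poor mice. One R6/1 good mouse, replicate 3, was above 6 of the 8 wild-type mice while the other 3 were lower than most of them.

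Vip encodes vasoactive intestinal peptide (ENSMUSG00000019772, chromosome 10, 5639218 to 5647617, plus strand) and was the least abundant of the 10 genes. Wild-type good mice had 1.25, 2.07, 4.23 and 11.03 CPM, wild-type poor mice 5.29, 10.1, 1.10 and 5.33 CPM, R6/1 good mice 5.29, 1.62, 0.584 and 0.350 CPM and R6/1 poor mice 1.88, 0.965, 2.59 and 8.35 CPM. The level spanned 10.003-fold among the 8 wild-type mice and 23.9-fold among the 8 R6/1 mice.

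Cck encodes cholecystokinin, a peptide of some interneurons and also of many cortical projection neurons (ENSMUSG00000032532, chromosome 9, 121489824 to 121495694, minus strand). Its values were 5.53, 14.9, 26.3 and 72.9 CPM in wild-type good, 21.1, 33.0, 18.002 and 26.0 CPM in wild-type poor, 40.6, 26.6, 17.9 and 5.15 CPM in R6/1 good and 15.2, 16.1, 17.2 and 82.7 CPM in R6/1 poor mice. Replicate 4 of wild-type good and replicate 4 of R6/1 poor stood far above the rest. The same 2 libraries had the highest summed levels of 12 markers of cortical glutamatergic neurons, at 865 and 922 CPM, against 51.0 to 592 CPM in the other 14.

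Calb2 encodes calretinin, a calcium-binding protein (ENSMUSG00000003657, chromosome 8, 110137502 to 110168210, minus strand). It was 5.22, 6.64, 32.0 and 11.1 CPM in wild-type good, 5.75, 12.5, 16.8 and 34.3 CPM in wild-type poor, 7.74, 7.51, 14.4 and 4.05 CPM in R6/1 good and 116, 30.7, 65.1 and 4.83 CPM in R6/1 poor mice. R6/1 poor 1 and R6/1 poor 3, the highest 2, also had the highest summed levels of 5 lateral septal markers (196 and 124 CPM, against 27.1 to 71.9 CPM in the other 14) and of 10 hypothalamic markers (44.1 and 26.7 CPM, against 5.78 to 17.7 CPM). Both tissues border the striatum or lie near it, and calretinin is made there too. R6/1 poor 1 and R6/1 poor 3 were also the lowest libraries for Npy and Sst. The part of tissue outside the striatum in the Calb2, Cck, Npy and Sst values was not tested.

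Th and the pair of GABA-synthesising enzymes were measured with less spread. Th encodes tyrosine hydroxylase, the first enzyme of dopamine synthesis, which a small class of striatal interneurons also contains (ENSMUSG00000000214, chromosome 7, 142892752 to 142931128, minus strand). It was 10.3, 9.54, 9.37 and 6.51 CPM in wild-type good, 10.8, 8.89, 9.76 and 7.65 CPM in wild-type poor, 5.68, 5.35, 6.31 and 6.14 CPM in R6/1 good and 8.63, 6.71, 5.88 and 4.54 CPM in R6/1 poor mice. All 4 R6/1 good mice were below all 8 wild-type mice, and R6/1 poor 1 and 2 reached into the wild-type range. Of the genes listed for dopamine synthesis and dopamine neurons, the dopamine transporter Slc6a3 was near 0. Its mean was 0.328 CPM in wild-type and 0.252 CPM in R6/1 mice. Pitx3 and the noradrenergic enzyme Dbh, at wild-type means of 0.0111 and 0.262 CPM, were too low to be tested. Others of that list were not near 0, among them Nr4a2, Ddc, Slc18a2 and Ret. Their wild-type means were 14.8, 11.7, 7.79 and 6.52 CPM, in that order.

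Gad1, for the larger GABA-synthesising enzyme GAD67 (ENSMUSG00000070880, chromosome 2, 70553072 to 70602014, plus strand), was at 699, 641, 733 and 492 CPM in wild-type good and at 585, 604, 701 and 662 CPM in wild-type poor mice. It was at 463, 554, 487 and 575 CPM in R6/1 good and at 468, 528, 532 and 355 CPM in R6/1 poor mice. Only wild-type good 4 had a value inside the R6/1 range. Gad2, for the smaller and mostly synaptic enzyme GAD65 (ENSMUSG00000026787, chromosome 2, 22622205 to 22693874, plus strand), was at 427, 463, 557 and 344 CPM in wild-type good and 432, 416, 493 and 498 CPM in wild-type poor mice, and at 379.7, 411, 392 and 409.7 CPM in R6/1 good and 499, 465, 482 and 275 CPM in R6/1 poor mice. The genotypes overlapped for Gad2, and R6/1 poor 4 was the lowest library for both enzymes. Annotated transcripts overlap Gad1 (Gad1os), Nos1 (Gm37028 and Gm26995) and Gad2 (Mir3967 and Gm23636), and no source used here gives the strand setting of the counting, which leaves reads of overlapping pairs possibly unseparated.

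Levels of different genes were set side by side as CPM per kb of exon, with the exons of all annotated transcripts of a gene merged. The order of the genes depends on that choice of length. On this scale the wild-type order was Sst (195 ± 18.5, SD, n = 8), Npy (97.9 ± 15.0), Gad1 (83.7 ± 10.2), Gad2 (77.2 ± 10.9), Pvalb (35.1 ± 18.3), Cck (20.9 ± 15.5), Calb2 (8.91 ± 6.63), Nos1 (6.47 ± 0.727), Th (3.85 ± 0.594) and Vip (1.48 ± 1.12). Only 2 steps of this order, Sst to Npy and Nos1 to Th, separated neighbours whose ranges over the 8 mice did not overlap. In R6/1 mice the order began with Sst (113 ± 17.2), Gad2 (70.5 ± 12.1), Gad1 (64.8 ± 9.06) and Npy (53.1 ± 14.0), and the ranges of all neighbours overlapped. On this scale Npy was above Gad2 in 6 of 8 wild-type mice and in 1 of 8 R6/1 mice. Gad1 was above Gad2 on it in 8 of 8 wild-type and 2 of 8 R6/1 mice. In CPM, without division by length, R6/1 poor 1 was the only mouse with Gad1 below Gad2 (468 against 499 CPM).

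**Figure D2:**
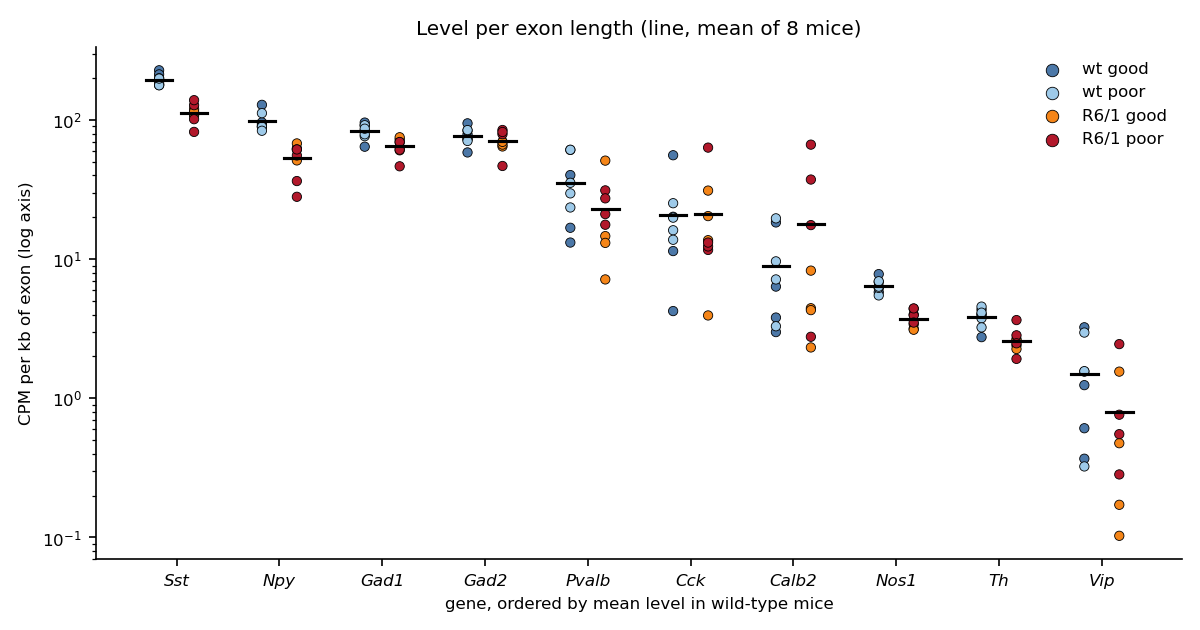
Level of the 10 genes in CPM per kb of exon on a log axis, ordered by the wild-type mean, with 1 point per mouse (wild-type left and R6/1 right of each position) and a line for the mean of 8 mice. Sst leads in both genotypes, and Npy drops from the second place in wild-type to the fourth in R6/1 mice.

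The comparison of R6/1 good mice with all wild-type mice asked how the less affected mutants, those ranked best within their genotype, differ from wild-type littermates. Sst, Npy, Nos1, Th and Gad1 were lower, and no gene of the 10 was higher. The size of the difference on the log2 scale (edgeR quasi-likelihood test, adjusted over all genes tested) was -0.88 ± 0.11 for Nos1 (SE, adjusted p = 4.8e-05), -0.78 ± 0.07 for Sst (adjusted p = 7.7e-06) and -0.69 ± 0.11 for Npy (adjusted p = 0.00052). Each of these 3 levels was thus 54.5%, 58.2% and 62.2% of the wild-type level, in that order. Th differed by -0.63 ± 0.13 (adjusted p = 0.0027) and Gad1 by -0.30 ± 0.10 (adjusted p = 0.034). The other 5 did not pass, with values of -0.19 ± 0.10 for Gad2 (adjusted p = 0.17), -0.26 ± 0.61 for Cck (0.79), -0.72 ± 0.56 for Pvalb (0.38), -0.89 ± 0.59 for Calb2 (0.30) and -1.34 ± 0.81 for Vip (0.26). The count of 5 lower genes among 10 compares with 12.4% of all genes called lower. The median difference of the 10 was -0.70, beside 0.01 over all genes tested.

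Of these calls, the one of Gad1 depended on single mice. It was lost without wild-type good 1 (adjusted p = 0.052) or 3 (0.055), wild-type poor 3 (0.058) or 4 (0.053), or R6/1 good 1 (0.12), 2 (0.052) or 3 (0.092), and also with the library number (1 to 8 or 9 to 16) as a covariate, where its difference was -0.19 ± 0.11 (adjusted p = 0.27). The call of Gad2 was gained without wild-type good 4 (-0.24, adjusted p = 0.038). Of the genes not called, Pvalb was at -1.60 without R6/1 good 3 (adjusted p = 0.059) and Vip at -2.54 without R6/1 good 1 (adjusted p = 0.071). Sst, Npy, Nos1 and Th stayed called under each of the 12 omissions of a mouse.

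In R6/1 poor mice against all wild-type mice, Npy showed the largest difference of the called genes, -1.11 ± 0.19 (adjusted p = 0.00089, edgeR), which put it at 46.4% of the wild-type level. Npy was lowest in R6/1 poor 1 and R6/1 poor 3, the libraries with the highest septal and hypothalamic marker sums. The part of that make-up in the Npy difference was not tested. Sst differed by -0.79 ± 0.12 (adjusted p = 0.00034) and Nos1 by -0.70 ± 0.09 (adjusted p = 8.5e-05). Th (-0.50 ± 0.16, adjusted p = 0.034) and Gad1 (-0.44 ± 0.12, adjusted p = 0.012) were also lower, so that the same 5 of 10 genes were called as in R6/1 good mice. Of all genes, 14.9% were called lower in R6/1 poor mice. The 2 comparisons share their 8 wild-type mice. Calb2 was at 1.80 ± 0.69 (adjusted p = 0.072), Cck at 0.28 ± 0.62 (0.78), Gad2 at -0.08 ± 0.15 (0.74), Vip at -0.53 ± 0.69 (0.60) and Pvalb at -0.53 ± 0.40 (0.35), and none of these passed.

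Th lost its call without wild-type good 1 (adjusted p = 0.055), wild-type poor 1 (0.061) or 3 (0.054), or R6/1 poor 2 (0.058), 3 (0.11) or 4 (0.10), and against wild-type poor mice only (-0.53 ± 0.19, adjusted p = 0.073). Calb2 gained one, as a higher gene, without wild-type poor 4 (2.06, adjusted p = 0.048) or R6/1 poor 4 (2.18, adjusted p = 0.018), and by DESeq2 (1.81, adjusted p = 0.046). Without R6/1 poor 1 it was at 1.10 (adjusted p = 0.32), and in all R6/1 against wild-type mice at 0.31 (adjusted p = 0.75). Vip was at -1.45 without R6/1 poor 4 (adjusted p = 0.17). Without the mouse of highest Cck level in each genotype, the 5 lower genes were still called and Calb2 was called higher (2.12, adjusted p = 0.024). The highest 2 Calb2 levels are those of R6/1 poor 1 and 3, whose hypothalamic and septal marker sums are given above. In this comparison 3 of 5 lateral septal markers were called higher (Zic4 at 1.84 ± 0.52, Zic2 at 1.35 ± 0.40 and Trpc4 at 0.84 ± 0.18, adjusted p from 0.0030 to 0.025 by edgeR, list median 1.23), and so were 2 of 7 tested hypothalamic markers (Sim1 at 3.21 ± 1.00 and Otp at 2.997 ± 0.87, adjusted p = 0.030 and 0.021), which average 0.178 and 0.204 CPM in wild-type mice. Over all genes, 2619 of 19363 were called higher in R6/1 poor against wild-type mice. In R6/1 good mice no septal marker was called, and 1 hypothalamic marker was lower (Trh, -1.27 ± 0.21, adjusted p = 0.00063).

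With all 8 R6/1 mice against all 8 wild-type mice, the same 5 genes were lower, with Npy at -0.88 ± 0.15 (adjusted p = 0.00030, edgeR), Nos1 at -0.79 ± 0.08 (2.0e-06), Sst at -0.79 ± 0.09 (2.6e-06), Th at -0.56 ± 0.12 (0.0017) and Gad1 at -0.37 ± 0.09 (0.0044). That is 5 of 10 genes where 17.0% of all genes were called lower. The 3 genes of the somatostatin class stood at 54.2%, 58.0% and 58.0% of the wild-type level (Npy, Nos1 and Sst). Pvalb (-0.62 ± 0.38, adjusted p = 0.23), Vip (-0.88 ± 0.61, 0.29), Cck (0.03 ± 0.51, 0.97), Calb2 (1.01 ± 0.70, 0.29) and Gad2 (-0.13 ± 0.11, 0.37) did not pass. All 5 calls held under each of the 16 omissions of a mouse.

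All R6/1 good libraries carry numbers 1 to 8 and 3 of the 4 R6/1 poor libraries carry numbers 9 to 16, so performance and library number are nearly confounded within R6/1 mice, while genotype can be compared inside each range of numbers. The R6/1 mice of libraries 9 to 16 are all poor performers, and those of libraries 1 to 8 are all good performers but 1. A difference between the ranges is therefore mixed with performance. Among libraries 1 to 8, all R6/1 against wild-type gave -0.77 ± 0.07 for Sst, -0.91 ± 0.11 for Npy, -0.83 ± 0.15 for Nos1, -0.62 ± 0.17 for Th (adjusted p from 0.00013 to 0.025, edgeR) and -0.19 ± 0.11 for Gad1, which was no longer called (adjusted p = 0.25). Among libraries 9 to 16, Sst (-0.85 ± 0.16), Npy (-1.10 ± 0.21), Nos1 (-0.71 ± 0.09) and Gad1 (-0.57 ± 0.12) were called (adjusted p from 0.0010 to 0.012), and Th was not (-0.51 ± 0.19, adjusted p = 0.093).

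**Figure D3:**
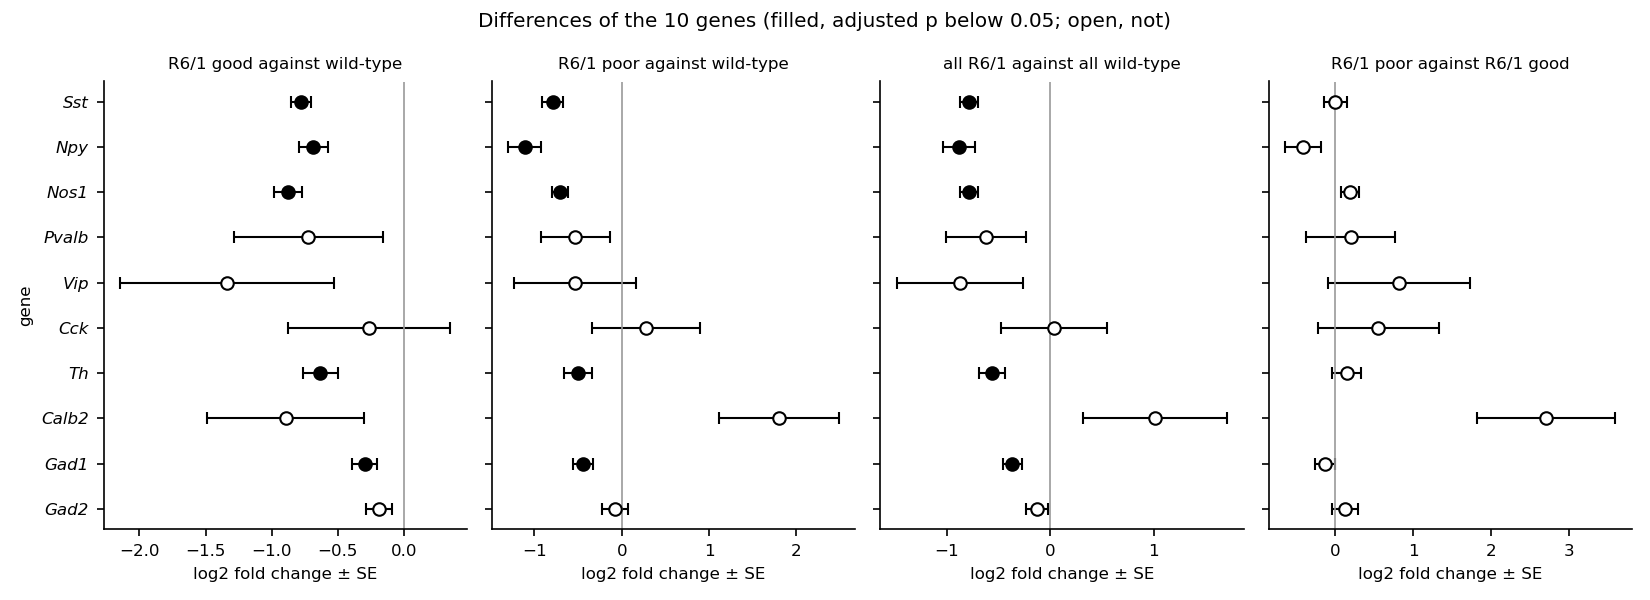
Log2 fold change ± SE (horizontal axis) of the 10 genes (rows) in 4 comparisons, with filled points for an adjusted p below 0.05 and open points otherwise. Sst, Npy, Nos1, Th and Gad1 are filled to the left of 0 in each of the 3 comparisons with wild-type mice, and the panel of R6/1 poor against R6/1 good mice holds open points only.

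R6/1 poor mice against R6/1 good mice addressed whether performance within the mutants goes with these genes, and none of the 10 was called. Sst differed by 0.0070 ± 0.14, Nos1 was at 0.19 ± 0.11 and Npy at -0.41 ± 0.23 (adjusted p = 0.99, 0.43 and 0.41, edgeR). Gad1 was at -0.13 ± 0.13, Gad2 at 0.13 ± 0.16, Th at 0.15 ± 0.19, Pvalb at 0.20 ± 0.57, Cck at 0.56 ± 0.77 and Vip at 0.82 ± 0.91. Calb2 had the largest difference, 2.71 ± 0.89 (adjusted p = 0.26), and was the 1 gene of 10 with an unadjusted p below 0.05. Over all genes edgeR called 0.0% after adjustment and 15.5% at an unadjusted p below 0.05, while DESeq2 called 356 genes and 0 of the 10.

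Wild-type poor mice against wild-type good mice likewise gave no call, neither for the 10 genes nor over all genes (0.0% by edgeR, 0 by DESeq2, and 2.44% at an unadjusted p below 0.05). The differences of Sst, Npy and Nos1 were -0.07 ± 0.09, -0.12 ± 0.13 and -0.10 ± 0.10, and those of Th, Gad1 and Gad2 were 0.05 ± 0.16, -0.0045 ± 0.12 and 0.04 ± 0.13. Pvalb, Vip, Cck and Calb2 had standard errors from 0.54 to 0.79. The interaction of genotype and performance, which tests whether the poor-to-good difference itself differs between genotypes, called 0.0% of genes with edgeR (5.77% at an unadjusted p below 0.05) and 1 gene with DESeq2. None of the 10 genes had an unadjusted p below 0.05 in it, with Nos1 at 0.27 ± 0.16, Npy at -0.30 ± 0.28 and Calb2 at 2.36 ± 1.18 (adjusted p = 0.83, 0.86 and 0.83).

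Ratios between genes of the same library do not depend on library scaling. The log2 ratio of Gad1 to Gad2 was 0.50 ± 0.10 in wild-type and 0.27 ± 0.19 in R6/1 mice (SD, n = 8 each), with ranges of 0.40 to 0.71 and -0.09 to 0.49. The difference of -0.23 had a two-sided exact permutation p of 0.0031, adjusted to 0.025 over the 8 ratio tests made, where the smallest p the 8 against 8 design allows is 0.00016. Within libraries 1 to 8 it was -0.21 (5 R6/1 and 3 wild-type mice, exact permutation p = 0.054), and within libraries 9 to 16 it was -0.33 (3 and 5 mice, exact permutation p = 0.018). The adjusted p was above 0.05 without wild-type good 1 (0.073), wild-type good 4 (0.058), wild-type poor 2 (0.062) or wild-type poor 3 (0.058), in the same exact permutation test. The ratios among the 3 genes of the somatostatin class did not pass between genotypes, with differences of -0.13 for Npy to Sst, -0.13 for Npy to Nos1 and -0.0037 for Sst to Nos1 (adjusted exact permutation p = 0.52, 0.67 and 0.98). In R6/1 poor against R6/1 good mice the ratio of Npy to Sst was -1.70 ± 0.19 against -1.25 ± 0.15 (SD, n = 4 each), and the ranges of the 2 groups did not overlap. The difference of -0.45 reached the smallest exact permutation p that 4 against 4 mice allow, 0.029, and 0.11 after adjustment, so it did not pass. Within these mice 3 of the 4 poor libraries and none of the good ones carry numbers 9 to 16, so library number and performance cannot be told apart here. The part of the septal and hypothalamic make-up of R6/1 poor 1 and R6/1 poor 3 in these ratios was not tested either.

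Across mice of the same genotype, Npy and Sst moved together in R6/1 mice. Their log2 levels gave Pearson's r = 0.83 over the 8 R6/1 mice (two-sided exact permutation p = 0.0092, adjusted over the 16 relations tested p = 0.018), Spearman's rho = 0.60 (exact permutation p = 0.13, adjusted p = 0.21) and r = 0.61 without the 2 mice farthest from the median of Sst, R6/1 poor 1 and 4. The rank measure did not pass, so the relation rests in part on those mice. In wild-type mice r was 0.32 and rho was 0.24 (exact permutation p = 0.46 and 0.58, adjusted p = 0.56 and 0.62). Nos1 did not pass with Sst (r = -0.18 in wild-type and -0.30 in R6/1 mice, adjusted exact permutation p = 0.72 and 0.56, rho = -0.24 and -0.31) or with Npy (r = -0.66 and -0.47, adjusted exact permutation p = 0.13 and 0.34, rho = -0.67 and -0.50). Gad2 followed Gad1 in wild-type mice with r = 0.88 (exact permutation p = 0.0055, adjusted p = 0.013) and rho = 0.76 (adjusted p = 0.084), and r fell to 0.51 without wild-type good 3 and 4, so the relation rests on those mice. In R6/1 mice it was 0.73 (adjusted exact permutation p = 0.10, rho = 0.43), and 0.19 without R6/1 good 4 and R6/1 poor 4.

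Cck and Vip followed the mean log2 CPM of cortical glutamatergic markers in both genotypes, and Calb2 followed that of lateral septal markers. For Cck, r was 0.96 in wild-type and 0.95 in R6/1 mice (adjusted exact permutation p = 0.0024 in both), rho was 0.90 and 0.88 (adjusted p = 0.018 and 0.023), and r was 0.92 and 0.85 without the 2 mice farthest from the median score. For Vip, r was 0.90 in both genotypes (adjusted exact permutation p = 0.0025 and 0.0082), rho was 0.98 and 0.86 (adjusted p = 0.0032 and 0.029), and r was 0.97 and 0.72 without the 2 mice farthest from the median score. Calb2 gave r = 0.91 in wild-type and 0.97 in R6/1 mice (adjusted exact permutation p = 0.0056 and 0.0024), rho = 0.98 and 0.95 (adjusted p = 0.0032 and 0.0061), and r = 0.96 and 0.89 without the 2 mice farthest from the median score. For Calb2 the mice left out had the highest septal scores of their genotype. The levels of these 3 genes therefore tracked markers of neighbouring regions from mouse to mouse, which is a relation between mice and not a count of cells. Th did not pass against the hypothalamic score (r = -0.12 in wild-type and 0.70 in R6/1 mice, adjusted exact permutation p = 0.80 and 0.080, rho = -0.10 and 0.62). Each range of library numbers holds at most 5 mice of a genotype, and no correlation was computed over fewer than 6.

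**Figure D4:**
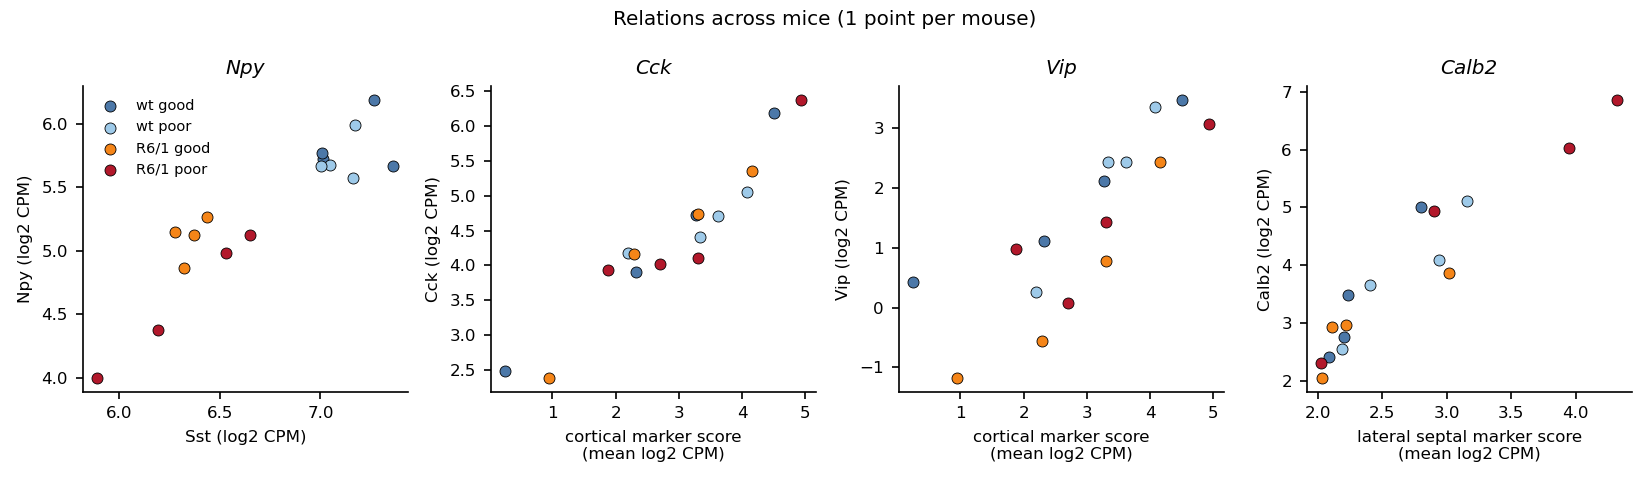
Level of Npy, Cck, Vip and Calb2 (log2 CPM, vertical axes) against Sst or the mean log2 CPM of cortical or lateral septal markers (horizontal axes), with 1 point per mouse coloured by group. Cck and Vip climb with the cortical score and Calb2 with the lateral septal score in both genotypes, where Pearson's r ran from 0.90 to 0.97.

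The 10 genes differed in how much they varied among mice of one group. With the group means removed, the SD on the log2 scale was 1.38 for Vip, 1.32 for Calb2, 1.18 for Cck and 0.86 for Pvalb, and between 0.32% and 2.15% of the 19363 genes were more variable than these 4. Npy (0.31), Th (0.27), Gad2 (0.26), Gad1 (0.21), Sst (0.20) and Nos1 (0.18) lay in the middle of all genes, with 32.4% to 56.8% of genes more variable.

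The genes whose pattern was most like that of each marker, over the 16 mice with group means removed and among 14445 genes of mean log2 CPM of at least 1, are given as a description. The libraries share depth and tissue composition. For Sst these were Nckipsd (Pearson's r = 0.90), Sgta (0.90) and Lrfn4 (0.89), for Npy Tyro3 (0.94), Car7 (0.94) and 9330102E08Rik (0.93), and for Nos1 Dag1 (0.89), Huwe1 (0.88) and Fam120c (0.87). Pvalb was most like Rab37 (0.93), Abca8a (0.92) and 4930581F22Rik (0.92). For Vip the nearest were Golga7b (0.98), Nptxr (0.98) and Gm9954 (0.97), and for Cck Rtn4r (0.99), Pter (0.96) and Tbr1 (0.96), the last a transcription factor of cortical glutamatergic neurons. Calb2 went with Celf6 (0.98), Resp18 (0.96) and C530008M17Rik (0.96), and Th with Ttc41 (0.92), Gbp2 (0.88) and Dhrs13 (0.85). Gad1 was nearest to Abat, the enzyme that breaks down GABA (0.93), Odc1 (0.91) and Sall2 (0.90), and Gad2 to Nrsn2 (0.94), Cntnap2 (0.93) and Gpr101 (0.92).

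Other genes of the same interneurons and their pathways were taken from lists, and the counts below refer to all R6/1 against all wild-type mice, where 3325 of the 19363 genes tested were higher and 3295 lower (edgeR), with a median difference of 0.02. Of 7 other genes of parvalbumin interneurons, 5 were lower and none was higher, with a median of -0.66. Pthlh, a peptide gene of striatal fast-spiking interneurons, fell from 4.97 ± 1.97 CPM in wild-type to 1.33 ± 0.26 CPM in R6/1 mice (SD, n = 8 each), or -1.90 ± 0.21 on the log2 scale (adjusted p = 3.1e-06). Syt2, a calcium sensor of fast release, differed by -1.07 ± 0.22, the mitochondrial subunit gene Cox6a2 by -0.66 ± 0.15 and the fast potassium channel Kcnc1 by -0.38 ± 0.08 (adjusted p from 0.0014 to 0.0022). Pvalb itself, at -0.62 ± 0.38, was not called, while its standard error was larger than that of any of these.

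Of 8 other genes of somatostatin interneurons, 2 were lower, with a median of -0.43. Tacr1, the substance P receptor that this class carries together with the cholinergic interneurons, was at 43.8 ± 8.99 CPM in wild-type and 17.5 ± 2.89 CPM in R6/1 mice (-1.33 ± 0.12, adjusted p = 6.8e-07), and Nxph2 differed by -0.48 ± 0.17 (adjusted p = 0.037). Elfn1 (-0.67 ± 0.27, adjusted p = 0.064) and Grin3a (0.56 ± 0.24, adjusted p = 0.083) did not pass, and the somatostatin-related peptide cortistatin (Cort) was below 1 CPM on average in both genotypes. In single groups against wild-type mice, Elfn1 was called lower in R6/1 good mice (-1.19 ± 0.29, adjusted p = 0.011, edgeR). Grin3a was called higher in R6/1 poor mice (0.83 ± 0.26, adjusted p = 0.030, edgeR). Chodl, also of this list, was at 2.69 CPM in wild-type and 2.63 CPM in R6/1 mice on average (-0.03 ± 0.27, adjusted p = 0.94, edgeR). It thus did not share the lower level of Sst, Npy and Nos1 over all mice. Against wild-type mice it was called lower in R6/1 good mice (-0.64 ± 0.22, adjusted p = 0.048) and not called in R6/1 poor mice (0.38 ± 0.28, adjusted p = 0.33). Of 9 other genes of Vip, Cck and neurogliaform interneurons, 6 were lower, with a median of -0.49, among them Cxcl14 (-0.68 ± 0.09, adjusted p = 1.7e-05), Ndnf (-0.54 ± 0.11, 0.00071), Id2 (-0.60 ± 0.16, 0.0092) and Lamp5 (-0.49 ± 0.14, 0.015). Pnoc went the other way and was not called (0.43 ± 0.50, adjusted p = 0.54, edgeR). Taken by performance, its difference from wild-type mice was -0.77 ± 0.52 for good and 1.06 ± 0.46 for poor R6/1 mice, neither called. Lamp5, Id2 and Cxcl14 averaged 115, 79.8 and 70.8 CPM in wild-type mice, where Vip averaged 5.05 CPM. The part of other cells in the differences of this list was not tested. All 4 genes of cholinergic interneurons, which are not GABAergic and served for comparison, were lower, among them the acetylcholine-synthesising Chat (-1.75 ± 0.17, adjusted p = 7.7e-07) and the choline transporter Slc5a7 (-1.42 ± 0.17, adjusted p = 9.1e-06).

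Of 20 transcription factors listed for interneurons, 2 were lower and 1 was higher, with a median of -0.11. Their levels in whole tissue do not tell which cells they came from. Maf differed by -0.52 ± 0.09 (adjusted p = 0.00018), Dlx6 by -0.54 ± 0.10 (0.00069) and Satb1 by 0.45 ± 0.16 (0.043). Lhx6, which marks somatostatin and parvalbumin interneurons from their origin, was at 26.0 CPM in wild-type and 19.98 CPM in R6/1 mice on average and did not pass (-0.38 ± 0.15, adjusted p = 0.054), like Sp9 (-0.36 ± 0.14, 0.054). Against wild-type mice, Lhx6 was called lower in R6/1 good mice (-0.67 ± 0.12, adjusted p = 0.0011, edgeR). It was not called in R6/1 poor mice (-0.14 ± 0.16, adjusted p = 0.54, edgeR). Of 12 genes for making, moving and breaking down GABA, 3 were lower and 1 higher, with a median of -0.08. The lower ones were Glul, the glutamine synthetase of astrocytes (-0.60 ± 0.09, adjusted p = 6.2e-05), and the transporters Slc38a3 (-0.39 ± 0.10, 0.0054) and Slc6a13 (-0.53 ± 0.15, 0.0085), and the higher one was the glutamine transporter Slc38a1 (0.28 ± 0.09, 0.022). The vesicular GABA transporter Slc32a1 (-0.10 ± 0.10) and Abat (-0.09 ± 0.09) did not pass.

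Receptors for the interneuron peptides and for nitric oxide were called lower in 2 of 17 cases, with a median of -0.11: Gucy1a1, a subunit of the nitric oxide receptor guanylyl cyclase (-0.40 ± 0.09, adjusted p = 0.0032), and Vipr1, a receptor of Vip (-0.67 ± 0.22, 0.026). The neuropeptide Y receptors Npy1r, Npy2r and Npy5r (0.21 ± 0.12, -0.52 ± 0.28 and 0.17 ± 0.10) and the somatostatin receptors Sstr1, Sstr2 and Sstr4 (0.40 ± 0.30, -0.37 ± 0.31 and -0.31 ± 0.16) did not pass. Against wild-type mice, Npy2r was called lower in R6/1 good mice (-1.13 ± 0.20, adjusted p = 0.0012, edgeR). It was not called in R6/1 poor mice (-0.10 ± 0.30, adjusted p = 0.83, edgeR). Of the 9 tested genes of dopamine synthesis and dopaminergic neurons, Qdpr, which recycles the cofactor of tyrosine hydroxylase, was lower (-0.28 ± 0.08, adjusted p = 0.0097), and Ddc, the next enzyme of the route after Th, was at 0.42 ± 0.16 (0.059). The median of those 9 was -0.0042.

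**Figure D5:**
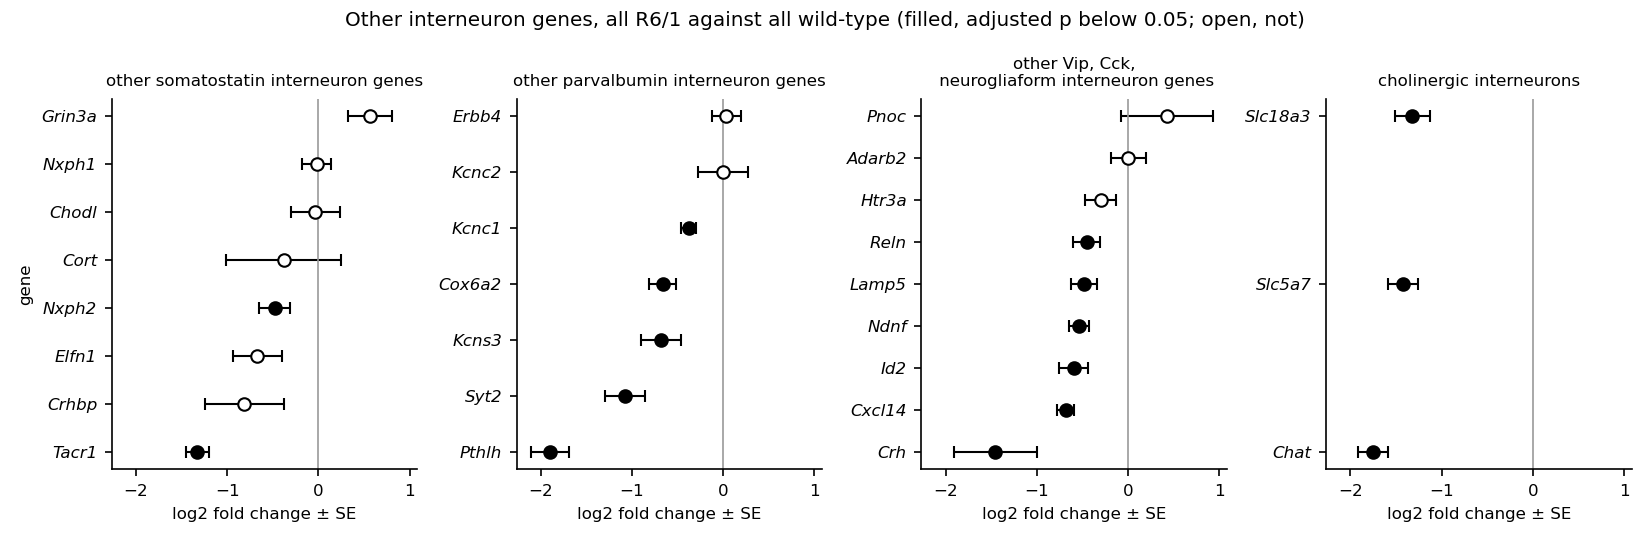
Log2 fold change ± SE (horizontal axis) of all R6/1 against all wild-type mice for other interneuron genes (rows) in 4 lists, with filled points for an adjusted p below 0.05. Tacr1, Pthlh, Syt2, Crh and the 3 cholinergic genes plotted lie furthest to the left, from -1.07 to -1.90, and Erbb4, Kcnc2, Nxph1, Chodl and Adarb2 lie near 0.

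Markers of the other cells of the tissue moved with genotype as well, and their part in the interneuron values was not tested. The medium spiny neuron list was lower in 13 of 14 genes (median -1.50), with Penk at -2.32 ± 0.14, Pde10a at -1.98 ± 0.19, Rgs9 at -1.85 ± 0.18 and Gpr6 at -1.61 ± 0.18, and its sum ranged from 6132 to 9446 CPM in wild-type and from 1542 to 3753 CPM in R6/1 mice. Astrocyte genes were lower in 4 of 6 cases, led by Slc1a2 (-0.84 ± 0.07), oligodendrocyte genes in 3 of 5 (Mobp, -0.75 ± 0.14), microglial genes in 5 of 5 (P2ry12, -0.42 ± 0.05) and endothelial genes in 4 of 4 (Cldn5, -0.67 ± 0.11). Of the cortical glutamatergic list 1 of 12 was lower (Rorb, -0.40 ± 0.09), of the lateral septal list 1 of 5 was higher (Trpc4, 0.53 ± 0.19), of the neuroblast list 1 of 4 was higher (Dcx, 0.50 ± 0.15), and in this comparison of all mice none was called among 7 tested hypothalamic, 4 ependymal and 4 choroid plexus genes. Hcrt, Pmch and Oxt, peptides that define hypothalamic neurons, were near 0 (wild-type means of 0.0368, 0.0454 and 0.369 CPM) and were too low to be tested, and Agrp, Sim1, Otp and Avp were below 1 CPM on average in wild-type mice. Trh, Hdc and Pomc were higher, at wild-type means of 5.78, 3.22 and 1.32 CPM. Single R6/1 mice reached 23.8 CPM for Trh, 4.02 for Otp, 3.97 for Sim1 and 2.82 for Avp. The lower levels of Sst, Npy and Nos1 were thus found beside lower levels in most lists of striatal cells, and their differences of -0.79 to -0.88 lay between the medians of the oligodendrocyte list (-0.35) and the cholinergic list (-1.37).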

How the data were processed

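Total RNA from the striatum of 16 mice was made into stranded mRNA libraries, 1 per mouse, and the deposited values are whole-number counts of reads per Ensembl gene that the authors made without normalization. Per the labels the reads were mapped with TopHat 1.0.1 (CASAVA and Bowtie are also named). No source used here names the counter, its strand setting or the annotation release. Symbols, positions and exon lengths came from GENCODE M21 (GRCm38), and all 55450 identifiers matched.

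The members and gene lists were chosen with earlier results of these data known. Groups came from the sample titles. The 19363 genes that reached 10 counts in 4 or more libraries were tested with edgeR 4.0.16 in R 4.3.3 (TMM factors per comparison, robust quasi-likelihood fit, Benjamini-Hochberg adjustment over all genes tested, threshold 0.05), and SE was the log2 fold change divided by the root of F. The statistics code was checked on simulated counts. R6/1 good and R6/1 poor mice were each compared with all 8 wild-type mice. DESeq2 1.42.0, other scalings and filters, a replicate block, library number and omission of each mouse were alternatives. Each library is labelled as a sample of its own. Wild-type good 1 and 2 share the number 8 in their labels (8 and 8b). Their counts differed by far more than sampling noise (chi-square per degree of freedom 23.3, against 21.3 to 39.3 for the other pairs of that group). That difference cannot tell 2 mice from 2 preparations of 1 mouse. They were kept as 2 mice because they are labelled as separate replicates. Log2 ratios used a pseudocount of 0.5 and log2 CPM a prior count of 2, with exact permutation tests in Python 3.11.15 (scipy 1.17.1). All 10 genes were named in each comparison. Of the other lists, up to 4 genes of smallest p in the comparison of the 2 genotypes and the defining markers near 0 were named. The genes and values added to these (Slc32a1, Abat, Lhx6, Cort, Crh, Chodl, Pnoc, the Npy1r, Npy2r, Npy5r, Sstr1 and Sstr2 receptors, the levels of Nr4a2, Ddc, Slc18a2, Ret, Trh, Hdc, Pomc, Lamp5, Id2 and Cxcl14, the highest R6/1 levels of Trh, Otp, Sim1 and Avp, the Zic2, Zic4, Trpc4, Sim1, Otp, Trh, Elfn1, Grin3a, Chodl, Pnoc, Lhx6 and Npy2r differences in single R6/1 groups, and the near-0 differences in the plot) were chosen after their values were seen. Some list genes are counted but not reported here by name. With total counts of 16155356 to 24897354, depth limits only the lowest genes, such as Vip at under 1 CPM in 3 libraries.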

Additional observations from a re-analysis of the deposited data

Results flagged for a closer look

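Among the 40 sets of 4 mice (10 genes in 4 groups), 4 held a mouse far from the other 3 by Dixon's criterion (the gap to the nearest, relative to the range), and chance alone would single out about 1 in 20 of the sets. Npy was at 72.8 CPM in wild-type good 4, against 50.8 to 54.4 CPM in the other 3 mice. Pvalb was at 53.2 CPM in R6/1 good 3, against 7.45 to 15.3 CPM. Cck was at 82.7 CPM in R6/1 poor 4, against 15.2 to 17.2 CPM, and in the same mouse Gad2 was at 274.9 CPM, against 465 to 499 CPM. R6/1 poor 4 also held the highest summed level of cortical glutamatergic markers (922 CPM) and the lowest Gad1 level (355 CPM). The part of that library's make-up in its Gad2 value was not tested.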

How the results depend on the processing

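The lower Sst, Npy and Nos1 of R6/1 good, R6/1 poor and all R6/1 mice kept their direction and their call under each alternative, except that among libraries 1 to 8 alone R6/1 poor mice, then 1 mouse, gave 0 called genes of the 10 in place of 5, from fewer samples (Sst -0.63, Npy -1.002 and Nos1 -0.69, adjusted p = 0.070, 0.075 and 0.19, edgeR). No other count of called genes among the 10 moved by over 1.5 times. Gad1 in R6/1 good against wild-type mice lost its call in 12 settings. With the replicate block it was at -0.30 (edgeR, adjusted p = 0.056), and no other call among the 10 changed; same-numbered mice shared only a number, as their deviations from the group means correlated between -0.35 and 0.23 over 19363 genes. Over all genes, R6/1 poor against R6/1 good mice gave 0 calls, 356 by DESeq2, 28 with no filter and 96 with the replicate block, and the interaction gave 0, 1 by DESeq2 and 1 without the mice of highest Cck level. All R6/1 against all wild-type mice gave 6620 calls, and 4368 and 3401 among libraries 1 to 8 and 9 to 16. R6/1 good mice gave 4758, and 2698 against wild-type good mice only, and R6/1 poor mice gave 5511, 445 and 3401 among libraries 1 to 8 and 9 to 16. Without R6/1 poor mouse 3 that last comparison gave 3662. Without R6/1 poor mouse 2 or 4, R6/1 poor against good mice gave 61 and 99 calls, and without mouse 2 the interaction gave 2. A prior count of 0.5 moved none of the 16 relations across the threshold, and a pseudocount of 2 none of the 8 ratios.

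Differences that were not called turned sign as follows on the log2 scale, and the cause was not tested. With the library number range as a covariate, the sign turned for Calb2 at 0.19 in R6/1 good against wild-type mice, Pvalb at -0.013, Vip at -1.02, Cck at -0.48 and Gad1 at 0.034 in R6/1 poor against good mice, Calb2 at -0.064 and Gad2 at -0.017 in wild-type poor against good mice, Gad2 at -0.0021 in the interaction. Among libraries 1 to 8 alone, the sign turned for Calb2 at 0.19 in R6/1 good against wild-type mice, Cck at -1.04 and Gad2 at 0.21 in R6/1 poor against wild-type mice, Cck at -0.64 and Gad2 at 0.027 in the comparison of all R6/1 with all wild-type mice, Pvalb at -0.012, Vip at -1.02, Cck at -0.48 and Gad1 at 0.034 in R6/1 poor against good mice, Sst at 0.027, Npy at 0.014, Vip at -0.21 and Calb2 at -0.50 in wild-type poor against good mice. Without the mouse of highest Cck level in each genotype, a choice made after seeing the data, the sign turned for Cck at -0.36 and Gad2 at 0.039 in R6/1 poor against wild-type mice, Cck at -0.063 in the comparison of all R6/1 with all wild-type mice, Sst at -0.087, Pvalb at 0.39, Vip at -1.22, Cck at -1.13 and Gad1 at 0.085 in the interaction. With the replicate block, the sign turned for Sst at -0.019 in R6/1 poor against good mice, Cck at 0.18 and Gad1 at 0.0073 in wild-type poor against good mice, Pvalb at 0.13 and Cck at -0.018 in the interaction. With 1 fit of all 4 groups, the sign turned for Sst at -0.0084 in R6/1 poor against good mice. Among libraries 9 to 16 alone, the sign turned for Cck at 0.31, Th at -0.11 and Gad2 at -0.12 in wild-type poor against good mice. With no filter on low counts, the sign turned for Gad1 at 0.0021 in wild-type poor against good mice, Pvalb at 0.018 in the interaction. With RLE factors, the sign turned for Pvalb at 0.0095 in the interaction.

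Leaving out each mouse in turn, these differences, none called, ranged across 0. In R6/1 good against wild-type mice Cck ranged from -0.71 to 0.13. In R6/1 poor against wild-type mice Cck ranged from -0.75 to 0.67 and Gad2 from -0.16 to 0.088. In the comparison of all R6/1 with all wild-type mice Cck ranged from -0.45 to 0.42. In R6/1 poor against good mice Sst ranged from -0.11 to 0.13, Pvalb from -0.091 to 1.09, Vip from -0.099 to 2.02, Cck from -0.47 to 1.00 and Th from -0.028 to 0.29. In wild-type poor against good mice Sst ranged from -0.12 to 0.0015, Npy from -0.21 to 0.0093, Pvalb from -0.15 to 0.69, Vip from -0.25 to 1.09, Cck from -0.63 to 0.64, Th from -0.072 to 0.14, Calb2 from -0.23 to 1.19, Gad1 from -0.12 to 0.068 and Gad2 from -0.070 to 0.16. In the interaction Sst ranged from -0.055 to 0.19, Pvalb from -0.48 to 0.87, Vip from -0.35 to 1.77, Cck from -0.20 to 1.28, Th from -0.095 to 0.22 and Gad2 from -0.035 to 0.24. Among the log2 ratios of R6/1 against wild-type mice, Gad1 to Gad2 ranged from -0.27 to -0.18, Npy to Nos1 from -0.22 to 0.0089 and Sst to Nos1 from -0.061 to 0.075, where the first was called with all mice, stayed below 0 and lost its call 4 times. Depth limits Vip most, which was under 1 CPM in 3 libraries, and with 4 mice a group differences of the size of the standard errors of Pvalb, Vip, Cck and Calb2 cannot be seen.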
